A study of Mus musculus with 24 samples.

Results

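The 3 h response of Aim2-deficient CD4+ T cells to T cell receptor (TCR) stimulation was described in 6 of the 24 libraries of an mRNA sequencing series. Cells came from spleens of 3 Aim2-/- mice, numbered 1, 2 and 4 in the labels, on a C57BL6 background. From each mouse, 1 library was made of control cells (0 h) and 1 of cells given anti-CD3/CD28 antibodies for 3 h. The members were the 3 libraries of each time point in the raw count table, paired by mouse number. The other libraries are 6 h and 24 h libraries of the same mice, and WT libraries of 3 mice at the 4 times. The labels give culture in RP10 medium for 0 to 24 h, and no unstimulated library of 3 h was analysed here, so the effect of the antibodies and that of time in culture cannot be told apart. The whole animal was Aim2-deficient and the cells were bulk CD4+ T cells, so naive, memory and regulatory cells were measured together. In such bulk samples, fewer cells of a type and less RNA per cell cannot be told apart.

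A resting CD4+ T cell is kept small and circulating by transcription factors such as KLF2, FOXO1 and TCF1. Binding of CD3 and CD28 signals through the kinases LCK and ZAP70 to calcium, MAP kinase and NF-kB pathways, which switch on immediate early genes first, then cytokines, and then the machinery of growth that precedes cell division. IFNγ released by T cells acts back on them through JAK kinases and IRF1. AIM2 is a cytosolic sensor of double-stranded DNA that assembles an inflammasome with ASC and caspase-1.

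Totals of the 6 libraries lay between 20709423 and 21409678 counts. Levels are given in CPM, counts per 1000000 with library sizes scaled by the TMM method, and 3 counts, taken as the floor of detection, corresponded to 0.129 to 0.148 CPM in a library. The 7 CD4+ T cell markers, among them Cd3e, Cd4 and Trac, summed to 4359 to 4459 CPM at 0 h and to 3829 to 4088 CPM at 3 h, and none was at 0. Monocyte and macrophage markers such as Lyz2 and Csf1r summed to 105 to 337 CPM at 0 h and to 50.1 to 178 CPM at 3 h, with 4 of 7 called lower and none at 0. Plasma cell markers summed to 385 to 761 CPM at 0 h and 219 to 602 CPM at 3 h. Neutrophil markers summed to 119 to 331 CPM at 0 h and 84.0 to 276 CPM at 3 h, with 3 of 8 called lower (37.5%). Of all tested genes, 41.2% were called in either direction. Erythroid markers summed to at most 337 CPM and basophil and mast cell markers to at most 184 CPM, both with mouse 1 highest at 3 h. B cell markers summed to at most 50.9 CPM and CD8 T cell markers to at most 11.4 CPM. The gene of the genotype label, Aim2 (ENSMUSG00000037860, chr1:173350879-173466040, GRCm38), was detected in every library labelled Aim2-/-. It measured 15.7, 20.1 and 19.0 CPM at 0 h in mice 1, 2 and 4, and 14.6, 14.9 and 15.1 CPM at 3 h. These counts sum over the whole gene and do not show how the Aim2-/- allele altered its transcript. The libraries labelled WT 3 and WT 4 held 75.0 and 67.5 CPM at 0 h, whereas the library labelled WT 1 held 21.5 CPM, close to the Aim2-/- libraries. At 3 h the libraries labelled WT 1, WT 3 and WT 4 held 17.0, 50.7 and 52.3 CPM, so differences from WT are also given without the mouse labelled WT 1.

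To define the early response, 3 h was compared with 0 h within mice by edgeR's quasi-likelihood F test on 15325 genes, and a gene was called at a Benjamini-Hochberg adjusted p under 0.05. A total of 6307 genes, 41.2% of those tested, were called, 3193 higher (20.8%) and 3114 lower (20.3%). Most changes were small: 857 genes rose and 617 fell by more than 1 on the log2 scale, and 87 rose and 13 fell by more than 3. Of the called genes, 6213 (98.5%) moved the same way in all 3 mice. The calls came from these same libraries, so this share is no separate evidence for them. The 3 libraries of 3 h did not overlap the 3 of 0 h in CPM for 5114 called genes (81.1%) and for 39.9% of all tested genes. With library totals as the only scaling, 4332 genes were called higher and 2284 lower, and the median log2 fold change of all tested genes moved from 0.01 to 0.13. That scaling moves values upward, so a small negative list median can change sign with it. The 3 mice did not respond with equal size. The median absolute change of the called genes was 0.49 in mouse 1, 0.58 in mouse 2 and 0.63 in mouse 4.

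**Figure D1:**
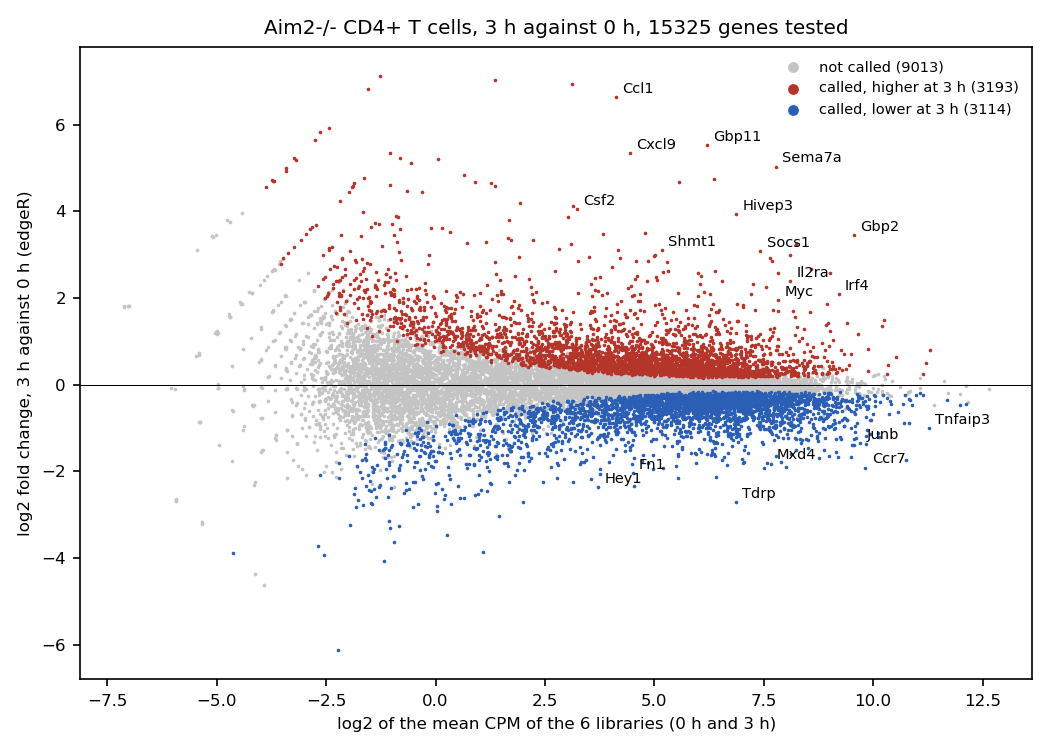
Log2 fold change (3 h against 0 h, edgeR) of each tested gene against the log2 of its mean CPM over the 6 libraries. Red points are called higher (3193), blue points called lower (3114) and grey points not called; genes without a count in the 6 libraries are not drawn. The largest rises named, among them Ccl1 and Gbp11, exceed 5 on the log2 scale, while Tdrp, the largest fall named, lies at -2.72.

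Among genes of at least 10 CPM in the higher group whose groups did not overlap, the 10 largest rises were Ccl1, Gbp11, Cxcl9, Sema7a, Ccl4, Ccl3, Csf2, Hivep3, Jaml and Il13. Sema7a, a membrane-anchored semaphorin, measured 15.0, 10.3 and 11.2 CPM at 0 h and 195, 485 and 596 CPM at 3 h in mice 1, 2 and 4. Its log2 fold change was 5.03 ± 0.31 (SE, adjusted p = 9.66e-11), and 5.64 without mouse 1. Hivep3, a zinc finger protein, went from 15.8, 14.5 and 12.5 CPM to 168, 235 and 259 CPM (log2 3.93 ± 0.20). Both genes lay near 10 to 20 CPM in every 0 h library and above 160 CPM in every 3 h one. Jaml, a junctional adhesion molecule, rose by 3.51 ± 0.20 on the same scale. The 10 largest falls were Tdrp, Hey1, Bambi-ps1, Thbs1, Usp2, Ier5l, Fibcd1, Arl5c, Fn1 and Rtn4rl1. Tdrp fell from 133, 240 and 232 CPM to 25.3, 33.0 and 32.2 CPM (log2 -2.72 ± 0.14, adjusted p = 1.21e-11). Hey1, a Notch-induced repressor, fell from 24.4, 17.2 and 24.6 CPM to 5.25, 4.04 and 3.67 CPM. The falls were smaller than the rises, from -1.96 for Rtn4rl1 to -2.72, against 3.48 for Il13 to 6.63 for Ccl1. Thbs1 (log2 -2.25 ± 0.33) and Fn1 (-2.03 ± 0.22) encode extracellular matrix proteins that macrophages also make, and the summed macrophage markers moved by a ratio of 0.506. Their part in these falls was not tested.

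The genes of the receptor and of its first kinases changed in both directions. Of 23 genes of the TCR complex and proximal signalling, 8 rose and 6 fell (60.9% called, against 41.2% of all tested genes). Their median log2 fold change was -0.11. Cd3e measured 540, 593 and 524 CPM at 0 h and 502, 527 and 489 CPM at 3 h and was not called (adjusted p = 0.128), nor were Lck (-0.18, adjusted p = 0.0804) and Lat (0.06). The adaptor genes went in opposite directions. Lcp2, encoding the scaffold SLP-76, rose from 312, 309 and 296 CPM to 589, 827 and 767 CPM (log2 1.23 ± 0.10), and Grap2, encoding its partner GADS, fell from 585, 947 and 804 CPM to 221, 290 and 224 CPM (-1.66 ± 0.10). Prkcq, the kinase PKCθ, rose by 0.85 ± 0.09, and Cd4 fell by 0.57 ± 0.10 on the log2 scale. Zap70 was called at 0.30 ± 0.11 (adjusted p = 0.0320), but not without mouse 2 (adjusted p = 0.161) or mouse 4 (adjusted p = 0.372). Without mouse 2, 5 of the 23 genes rose.

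In the calcium and NFAT list, Nfatc2 fell by 1.03 ± 0.09 and the calcium sensor Stim1 by 0.95 ± 0.14 on the log2 scale, while Nfatc1, the inducible family member, was not called (0.18, adjusted p = 0.247). Of the 13 genes, 3 rose and 4 fell (53.85% called, against 41.2% of all tested genes). The genes that rose, Rcan1, Orai3 and Cabin1, did so by 0.37, 0.23 and 0.19. Orai3 lost its call without any of the 3 mice (adjusted p = 0.0802 to 0.110), and Cabin1 without mouse 2 (adjusted p = 0.127) or mouse 4 (adjusted p = 0.209). Rcan1, a feedback inhibitor of calcineurin, measured 10.9, 9.16 and 9.75 CPM at 0 h and 13.1, 10.9 and 14.7 CPM at 3 h, and its adjusted p of 0.0389 became 0.0551, 0.0681 and 0.297 without mouse 1, 2 and 4. Of the 13 genes, 1 rose without mouse 1 and 0 rose without mouse 2 or without mouse 4.

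Immediate early transcription factors split into rising and falling members. Of 22 genes, 8 rose and 10 fell, which is 81.8% called against 41.2% of all tested genes. Egr1, a zinc finger factor downstream of MAP kinases, was the largest rise, from 63.5, 62.5 and 67.6 CPM at 0 h to 289, 384 and 505 CPM at 3 h (log2 2.59 ± 0.15, adjusted p = 8.13e-11). Egr2 (1.08 ± 0.16), Egr3 (1.16 ± 0.20), Atf3 (1.12 ± 0.18) and Fosl1 (2.17 ± 0.36) also rose, although Fosl1 stayed below 7 CPM. In contrast, the AP-1 genes Fosb and Junb and the factor Klf4 fell. Junb went from 1342, 1082 and 1150 CPM to 450, 478 and 482 CPM (-1.34 ± 0.10, adjusted p = 1.72e-09). Klf4 fell from 96.0, 54.9 and 60.2 CPM to 31.0, 14.4 and 14.1 CPM (-1.88 ± 0.12), and Fosb by 1.66 ± 0.14 on the log2 scale. Fos fell by 0.78 ± 0.10 and Jun rose by 0.61 ± 0.13. Nr4a1, an orphan nuclear receptor used as a reporter of TCR signal strength, was already at 1212, 1060 and 1142 CPM at 0 h and at 1281, 1789 and 2367 CPM at 3 h (0.64 ± 0.16, adjusted p = 0.00243). Mouse 4 was highest, and without it Nr4a1 was not called (0.42, adjusted p = 0.101). Its relative Nr4a3 was called at -0.38 ± 0.14 (adjusted p = 0.0384), and not without mouse 1 (adjusted p = 0.568). Several of these transcripts were already high at 0 h. Mean Fos, Junb, Nr4a1 and Nr4a3 were 107, 1191, 1138 and 1500 CPM at 0 h. At 24 h they were 6.67, 270, 204 and 282 CPM. Jun and Egr3 also had higher means at 0 h than at 24 h, whereas Egr1 and Egr2 had lower ones. The source of the 0 h levels was not tested.

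Within the NF-kB list, 4 of 25 genes rose and 12 fell (64.0% called, against 41.2% of all tested genes). The falls included inhibitors of the pathway. Tnfaip3, encoding the deubiquitinase A20, fell from 3387, 3204 and 3234 CPM to 1775, 1671 and 1503 CPM (log2 -0.99 ± 0.08, adjusted p = 2.98e-09). Its partner Tnip1 fell from 361, 406 and 382 CPM to 213, 214 and 164 CPM (-0.97 ± 0.10), Birc2 by 0.56 ± 0.09 and Nfkbia, encoding IκBα, by 0.32 ± 0.08 on the log2 scale. Among the rises were Malt1 (0.54 ± 0.13), a paracaspase, and Ikbke (0.51 ± 0.10). Malt1 was not called without mouse 4 (adjusted p = 0.0540). The subunit genes moved little: Nfkb1 was called at 0.25 ± 0.09 (adjusted p = 0.0350) and Rel at -0.24 ± 0.09 (adjusted p = 0.0490), while Relb and Nfkbid were not called. Nfkb1 lost its call without mouse 2 (adjusted p = 0.238) or mouse 4 (adjusted p = 0.313), and Rel without mouse 1 (adjusted p = 0.502) or mouse 2 (adjusted p = 0.0895). The number of rises in the list was 2 without mouse 2 and 1 without mouse 4.

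Negative feedback regulators also divided, with 7 of 29 rising and 13 falling (69.0% called, against 41.2% of all tested genes). Socs1, the suppressor of JAK and interferon signalling, rose most, from 44.0, 30.6 and 32.9 CPM to 228, 326 and 366 CPM (log2 3.09 ± 0.21, adjusted p = 3.47e-10). Dusp6 (1.35 ± 0.18), a phosphatase of ERK, and Cish (1.27 ± 0.11), a STAT5-induced inhibitor, rose as well. Dusp1 fell from 485, 369 and 402 CPM to 164, 138 and 116 CPM (-1.59 ± 0.10), and Ubash3a, a phosphatase that limits TCR signals, fell by 1.52 ± 0.12 on the log2 scale. Zc3h12a, the RNase regnase-1, fell by 0.43 ± 0.08. Dusp2 and Zfp36, at about 300 CPM or more at 0 h, were not called (adjusted p = 0.861 and 0.0840).

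Cytokine genes rose from low levels. Of 27 cytokines and TNF family ligands, 15 rose, 13 of them by more than 1 on the log2 scale, and 3 fell. That is 66.7% called, against 41.2% of all tested genes, with a median of 0.90. Il2, the T cell growth factor, went from 3.10, 1.82 and 2.71 CPM to 17.97, 13.9 and 28.2 CPM (log2 2.95 ± 0.23, adjusted p = 2.03e-09). Ifng went from 31.9, 16.5 and 32.1 CPM to 63.5, 58.7 and 175 CPM (1.81 ± 0.24, adjusted p = 3.51e-06), with mouse 4 well above mice 1 and 2 at 3 h. Tnf went from 45.7, 36.1 and 42.7 CPM to 124, 103 and 173 CPM (1.67 ± 0.15), and Lta from 19.0, 19.6 and 22.1 CPM to 44.8, 69.4 and 82.0 CPM (1.68 ± 0.20). In all 4 genes each 3 h library exceeded each 0 h library. Csf2, encoding GM-CSF, rose by 4.05 ± 0.21 and Il13 by 3.48 ± 0.36, the latter by 4.06 without mouse 1. Il17f went from 0.387, 0.345 and 0.394 CPM to 9.54, 1.51 and 10.7 CPM, with mouse 2 far below the others. Il3 had at most 1 count per library at 0 h and 3.44, 5.09 and 6.64 CPM at 3 h. The mean of these 3 h values was 35.8 times the floor of 3 counts per library. Tnfsf11, encoding RANKL, rose by 0.58 ± 0.13, and Cd40lg (0.40 ± 0.16, adjusted p = 0.0524) was not called. Il10 was the largest fall, from 70.9, 61.2 and 48.4 CPM to 31.6, 23.1 and 27.6 CPM (-1.14 ± 0.20, adjusted p = 7.49e-05). Fasl (-0.36 ± 0.13, adjusted p = 0.0337) was not called without mouse 1 (adjusted p = 0.219) or mouse 4 (adjusted p = 0.0981), and the number of falls was 1 without either of them and with library totals.

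Chemokines had the highest median of the lists, 2.39, with 10 of 13 rising, all by more than 1, and 1 falling. Ccl1, the CCR8 ligand, measured 0.678, 0.246 and 0.148 CPM at 0 h and 30.7, 19.3 and 53.3 CPM at 3 h (log2 6.63 ± 0.53, adjusted p = 3.92e-09). Its value was 7.42 without mouse 1 and 5.88 without mouse 4. The chemokine genes Ccl3 and Ccl4 reached 69.1, 46.6 and 156 CPM and 104, 89.3 and 284 CPM from at most 8.47 CPM. Their log2 fold changes were 4.68 ± 0.29 and 4.75 ± 0.31, and for Ccl3 it was 5.30 without mouse 1. Xcl1 went from 37.9, 13.7 and 22.9 CPM to 97.2, 52.7 and 157 CPM (2.05 ± 0.32). Mouse 2 was lowest for each of these genes at 3 h. Ccl17, a CCR4 ligand usually made by dendritic cells, reached 1.85, 0.550 and 0.753 CPM from at most 2 counts, with a mean 7.45 times the floor. Its log2 value was 3.59, and 2.67 without mouse 1. Ccl5 alone fell, by 0.55 ± 0.14 on the log2 scale.

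Receptors for cytokines and migration signals changed in both directions. Of 23 cytokine receptors, 4 rose and 9 fell (56.5% called, against 41.2% of all tested genes). Il2ra, the high-affinity IL-2 receptor chain CD25, rose from 101, 73.9 and 89.1 CPM to 395, 425 and 561 CPM (log2 2.38 ± 0.14, adjusted p = 4.66e-11). Il12rb1 followed, from 11.8, 7.98 and 9.65 CPM to 21.4, 29.2 and 50.8 CPM (1.72 ± 0.24). Ifngr2, the signalling chain of the IFNγ receptor, fell from 134, 225 and 229 CPM to 68.9, 77.1 and 71.1 CPM (-1.42 ± 0.13, adjusted p = 4.08e-08). Il21r fell from 1140, 988 and 1062 CPM to 398, 376 and 436 CPM (-1.40 ± 0.09). Il7r fell by 1.01 ± 0.14, Il6ra by 0.54 ± 0.10 and Il2rb by 0.44 ± 0.10 on the log2 scale. Tgfbr1 was called at 0.29 ± 0.11 (adjusted p = 0.0349), and not without any of the 3 mice (adjusted p = 0.0738 to 0.154). The rises numbered 2 without mouse 2 or without mouse 4. Of 15 chemokine and homing receptors, 2 rose and 7 fell (60.0% called), and with library totals 4 rose. Ccr7, which holds T cells in lymphoid tissue, fell from 1049, 1640 and 1626 CPM to 335, 412 and 375 CPM (-1.92 ± 0.10, adjusted p = 1.17e-11). S1pr1, the receptor for exit from lymph nodes, fell from 884, 1236 and 1181 CPM to 356, 413 and 278 CPM (-1.68 ± 0.14), and Cxcr4 by 0.97 ± 0.18, S1pr4 by 0.96 ± 0.10 and Cxcr3 by 0.53 ± 0.12 on the log2 scale. Gpr183 (1.08 ± 0.11) and Ccr4 (1.17 ± 0.17) rose.

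Costimulatory and inhibitory receptors changed in both directions. Cd69, an early activation marker that retains cells in tissue, rose from 265, 261 and 304 CPM to 358, 519 and 658 CPM (log2 0.86 ± 0.14, adjusted p = 3.46e-05). Tnfrsf9, encoding 4-1BB, rose by 0.79 ± 0.12 and Slamf1 by 1.00 ± 0.16, whereas Icos fell by 0.38 ± 0.09, Cd28 by 0.60 ± 0.11 and Tnfrsf1b by 1.05 ± 0.10 on the log2 scale. Tnfrsf4, encoding OX40, was not called (-0.11, adjusted p = 0.386). Cd226 (0.43 ± 0.14, adjusted p = 0.0157) lost its call without mouse 2 (adjusted p = 0.203). Of the 17 genes, 4 rose and 5 fell (52.9% called, against 41.2% of all tested genes). Without mouse 1, without mouse 2 or with library totals, 3 fell. Among 14 checkpoint genes, 7 rose and 4 fell (78.6% called). Cd274, encoding PD-L1, rose from 168, 140 and 139 CPM to 348, 500 and 485 CPM (1.57 ± 0.12, adjusted p = 1.65e-09), and Cd160 (2.05 ± 0.24) and Cd200 (1.15 ± 0.13) rose too. Ctla4 fell from 550, 476 and 530 CPM to 351, 279 and 368 CPM (-0.65 ± 0.12), Nt5e, the ectonucleotidase CD73, by 0.58 ± 0.12 on the log2 scale, and Pdcd1 was not called (adjusted p = 0.357). Lag3 (-0.88 ± 0.27, adjusted p = 0.0130) lost its call without mouse 1 (adjusted p = 0.0615) or mouse 2 (adjusted p = 0.0734). Without mouse 4, 4 checkpoint genes rose, and without mouse 1 or mouse 2, 2 fell.

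Of 21 lineage transcription factors, 10 rose and 5 fell (71.4% called, against 41.2% of all tested genes). Their median was 0.29, and 3 fell with library totals. Irf8 rose most, from 64.0, 31.5 and 39.2 CPM to 220, 372 and 466 CPM (log2 2.93 ± 0.24, and 3.56 without mouse 1). Irf4, whose level follows TCR signal strength, rose from 231, 226 and 204 CPM to 721, 1120 and 1059 CPM (2.10 ± 0.16, adjusted p = 2.69e-09). Tbx21, the Th1 factor T-bet, went from 55.4, 32.0 and 37.95 CPM to 71.9, 110 and 147 CPM (1.34 ± 0.20), and Gata3, the Th2 factor, rose by 0.46 ± 0.08. Bach2, a repressor of effector genes, rose by 0.92 ± 0.12, while Runx3 fell by 1.00 ± 0.10 and Rora by 0.72 ± 0.11 on the log2 scale. Foxp3 (chrX:7573644-7595245, GRCm38), the factor that defines Treg cells, went from 171, 140 and 135 CPM to 326, 287 and 299 CPM (1.04 ± 0.14, adjusted p = 5.42e-06). Its 0 h and 3 h libraries did not overlap. The 14 Treg signature genes that the study names divided: 3 rose, 4 fell, and their median was -0.12. Besides Il2ra, the genes that rose were Tnfrsf9 and the actin-capping gene Capg (0.47 ± 0.11), and the integrin gene Itgae fell by 0.80 ± 0.17 on the log2 scale. Nrp1, a neuropilin of thymus-derived Treg cells, was not called (0.34, adjusted p = 0.126).

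**Figure D2:**
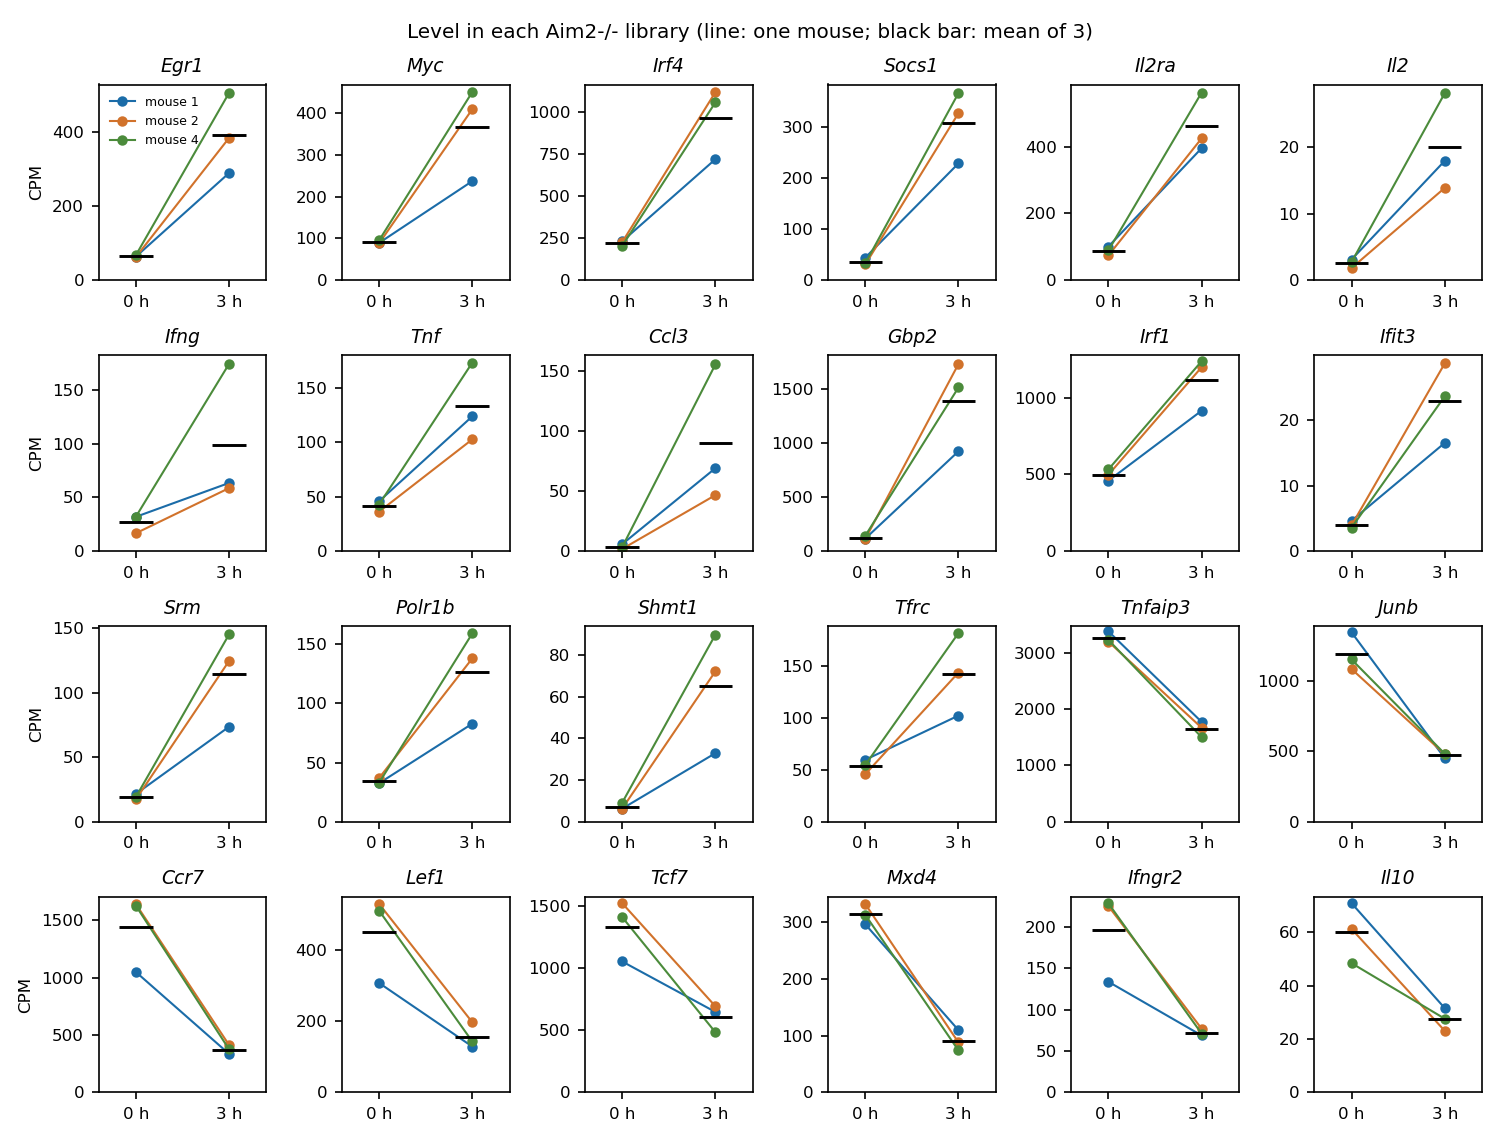
Level in CPM (y axis, from 0, own scale per gene) at 0 h and 3 h for 24 genes, with 1 line per Aim2-/- mouse and black bars for the means of 3. In the 24 panels every line rises or every line falls, and mouse 1 has the shallowest rise for Egr1, Myc, Gbp2, Srm and Shmt1.

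Interferon targets were the only list in which every tested member was called. All 21 IFNγ-induced GTPases and targets tested were called higher, 20 of them by more than 1 on the log2 scale, with a median of 2.25 against 0.01 for all tested genes. Leaving out any of the 3 mice left the count at 21. Gbp2, a guanylate-binding protein that attacks vacuoles of intracellular pathogens, went from 114, 111 and 140 CPM to 922, 1729 and 1512 CPM (log2 3.45 ± 0.20, adjusted p = 4.72e-11). Gbp11 showed the largest change, from 2.42, 4.33 and 2.51 CPM to 90.0, 189 and 155 CPM (5.52 ± 0.26). Gbp5 went from 64.9, 54.0 and 60.1 CPM to 354, 665 and 453 CPM (3.00 ± 0.19). Every 3 h value of these genes was at least 5 times its 0 h partner. Iigp1, an immunity-related GTPase, rose by 3.25 ± 0.17, and the transcription factor gene Irf1 went from 458, 497 and 532 CPM to 915, 1199 and 1238 CPM (1.17 ± 0.08, adjusted p = 7.89e-10). The CXCR3 ligands Cxcl9 and Cxcl10 rose by 5.35 ± 0.39 and 2.39 ± 0.25, Cxcl9 by 5.96 without mouse 1. Macrophage markers were present in every library, and the part of such cells in these rises was not tested. Reads of near-identical copies within the Gbp and Tgtp families may be shared between genes, so their single values are uncertain. Of 30 type I interferon-stimulated genes, 24 rose and 0 fell, with a lower median of 0.87. Oas2 (2.99 ± 0.24), Usp18 (2.59 ± 0.13), Ifit3 (2.48 ± 0.22) and Ifit1 (1.62 ± 0.22) rose, as did Irf7 (0.86 ± 0.12), whereas Isg15 was not called (-0.16, adjusted p = 0.428).

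The promoters of 4 of these genes are shown because the list shares short motifs in them. Sequences are the 250 bases before the RefSeq start site (GRCm38.p6), 5′ to 3′ on the gene's strand, with matches to the interferon-stimulated response element (ISRE, GAAANNGAAA), the STAT motif TTCNNNGAA or the kB decamer in capitals. They cover chr3:142620413-142620662 (+) for Gbp2, chr3:142496684-142496933 (+) for Gbp5, chr5:92348890-92349139 (-) for Cxcl10 and chr11:53769764-53770013 (+) for Irf1, for which the first of 2 listed starts is shown.
Gbp2: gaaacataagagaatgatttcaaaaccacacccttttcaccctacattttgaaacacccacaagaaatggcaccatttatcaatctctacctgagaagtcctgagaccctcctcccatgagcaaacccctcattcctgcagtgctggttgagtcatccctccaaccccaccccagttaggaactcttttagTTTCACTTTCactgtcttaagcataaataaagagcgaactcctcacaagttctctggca
Gbp5: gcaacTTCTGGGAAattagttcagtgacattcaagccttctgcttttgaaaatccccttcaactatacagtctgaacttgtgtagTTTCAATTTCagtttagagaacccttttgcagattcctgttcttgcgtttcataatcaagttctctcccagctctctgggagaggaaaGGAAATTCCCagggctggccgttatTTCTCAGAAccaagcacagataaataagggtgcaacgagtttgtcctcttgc
Cxcl10: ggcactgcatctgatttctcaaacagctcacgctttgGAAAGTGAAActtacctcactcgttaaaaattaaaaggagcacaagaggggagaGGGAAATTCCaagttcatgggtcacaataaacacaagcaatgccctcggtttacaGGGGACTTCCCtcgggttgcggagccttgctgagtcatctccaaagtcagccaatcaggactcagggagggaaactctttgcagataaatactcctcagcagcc
Irf1: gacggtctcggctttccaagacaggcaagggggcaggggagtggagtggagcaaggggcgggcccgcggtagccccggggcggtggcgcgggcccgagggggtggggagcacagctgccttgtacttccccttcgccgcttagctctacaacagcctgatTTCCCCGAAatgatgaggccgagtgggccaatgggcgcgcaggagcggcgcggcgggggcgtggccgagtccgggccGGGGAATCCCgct
Gbp2 holds an ISRE match from -59 to -50, and a kB match from 8 to 17 after the start, outside the bases shown. Gbp5 holds an ISRE match from -165, a kB match from -77 and STAT matches from -245 and from -52. Cxcl10 holds an ISRE match from -213 and 3 kB matches, 2 of which overlap, and Irf1 a STAT match from -90 and a kB match from -13, while the second Irf1 promoter holds none of the 3 motifs. Positions count from the start site. Both strands were searched over 300 bases, from 250 before to 50 after the start. Of the 21 IFNγ list members, 13 had a promoter in the table. An ISRE match stood in 10 of these 13 (76.9%), against 3.86% of the 10598 tested genes with a promoter, and a STAT match in 8 (61.5%), against 8.34%. Among 22 type I interferon promoters, 12 (54.5%) held an ISRE match. Among the 572 promoters of genes that rose by more than 1, the ISRE share was 7.52% and that of the AP-1 motif TGANTCA 10.8%, against 6.28% of all. The kB decamer was as frequent in them (12.2%) as in all promoters (12.2%). Among the 399 promoters of genes that fell by more than 1, the shares were 2.76% for ISRE, 8.02% for TGANTCA and 14.8% for the kB decamer. The interferon lists were chosen as interferon targets and not by their 3 h values, so their motif shares do not describe the 3 h response. A match is a description of letters and shows no binding.

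The genes of the Ifi200 family, to which Aim2 belongs, and its inflammasome partners changed in both directions, with 6 of 17 rising and 2 falling (47.1% called, against 41.2% of all tested genes). Ifi203, an interferon-inducible nuclear protein, rose from 41.5, 51.5 and 55.6 CPM to 113, 170 and 142 CPM (log2 1.51 ± 0.20), and Ifi206 rose by 1.31 ± 0.24. Pycard, encoding ASC, fell from 43.0, 40.2 and 45.9 CPM to 36.4, 25.6 and 28.5 CPM (-0.53 ± 0.10, adjusted p = 1.96e-04), while Casp1 (0.01, adjusted p = 0.966) and Aim2 (-0.30 ± 0.17, adjusted p = 0.181) were not called. Il1b, a monocyte cytokine, fell by 1.01 ± 0.34 (adjusted p = 0.0216), with overlapping groups, beside the macrophage markers given above. It was not called without mouse 1 (adjusted p = 0.170) or without mouse 2 (adjusted p = 0.120). The rises numbered 3 without mouse 4, and the falls 1 without mouse 1 or mouse 2.

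Myc, the driver of the T cell growth programme, went from 89.1, 88.1 and 95.3 CPM to 237, 409 and 450 CPM (log2 1.96 ± 0.13, adjusted p = 4.49e-10). Its antagonists fell, Mxd4 from 296, 332 and 313 CPM to 110, 88.0 and 73.9 CPM (-1.82 ± 0.12) and Mxi1 from 207, 202 and 200 CPM to 68.1, 54.7 and 52.6 CPM (-1.80 ± 0.09). Of 11 genes of the MYC network tested, 2 rose and 3 fell (45.5% called), among the latter also the repressor Mnt (-0.29 ± 0.06). The other rise, Mlx (0.17 ± 0.06, adjusted p = 0.0378), lost its call without mouse 1 (adjusted p = 0.250) or mouse 4 (adjusted p = 0.153), and 1 gene rose without either. Of 43 ribosome biogenesis and RNA polymerase I genes, 37 rose, 18 of them by more than 1, and 0 fell, with a median of 0.79 and 33 to 37 rises when a mouse was left out. Polr1b, a core subunit of RNA polymerase I, went from 32.5, 36.8 and 32.9 CPM to 82.9, 138 and 159 CPM (1.85 ± 0.13). Rrp1b rose by 1.73 ± 0.14 and Nop2 by 1.47 ± 0.13, while the abundant nucleolar genes Ncl (0.45 ± 0.11) and Nop56 (0.48 ± 0.09) rose less. The E box CACGTG stood in 9 of 39 promoters of this list (23.1%), against 11.6% of all. Its share was 12.6% for genes that rose and 13.3% for genes that fell by more than 1. Srm, spermidine synthase, went from 21.5, 17.4 and 19.2 CPM to 73.6, 125 and 145 CPM (2.50 ± 0.18), whereas Odc1, the enzyme before it, was not called (-0.24, adjusted p = 0.0577). Eif5a, the protein that spermidine modifies, rose by 0.55 ± 0.11. The decarboxylase gene Amd1 fell by 0.50 ± 0.12 and Oaz1, encoding ODC antizyme, by 0.36 ± 0.08 on the log2 scale. Of 11 polyamine genes 2 rose and 2 fell (36.4% called, against 41.2% of all tested genes).

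The protein synthesis machinery itself was described by 4 lists. Of 81 cytosolic ribosomal proteins, 14 rose and 15 fell (35.8% called, against 41.2% of all tested genes), with a median of -0.08. With library totals 18 rose and 1 fell. Rpl10a (0.72 ± 0.14) and Rpl38 (1.19 ± 0.27, at most 2.64 CPM) rose, while Rps15 (-0.29 ± 0.10, adjusted p = 0.0208) lost its call without mouse 2 (adjusted p = 0.101) or mouse 4 (adjusted p = 0.0933). Without mouse 2, 2 fell, and without mouse 4, 7 rose and 1 fell. Of 77 mitochondrial ribosomal proteins, 35 rose and 2 fell (48.05% called), and 19 rose without mouse 4. Mrpl17 (1.07 ± 0.11) and Mrps2 (0.98 ± 0.09) rose most, and Mrpl4 (-0.33 ± 0.07) and Mrpl9 (-0.29 ± 0.07) fell. Aminoacyl-tRNA synthetases rose in 15 of 20 cases, with none falling and a median of 0.50. Wars, which IFNγ also induces, rose from 57.4, 51.1 and 58.1 CPM to 123.1, 160 and 177 CPM (log2 1.45 ± 0.09), and Tars rose by 0.82 ± 0.09. Of 19 initiation factors, 10 rose and 2 fell (63.2% called). Eif2b3 (1.36 ± 0.14) and Eif2s1 (0.54 ± 0.10) rose and Eif1 fell (-0.34 ± 0.09). Eif4g2 (-0.23 ± 0.09, adjusted p = 0.0411) lost its call without any of the 3 mice (adjusted p = 0.0582 to 0.279). Eif4a1 (0.30 ± 0.10, adjusted p = 0.0206) lost its call without mouse 2 (adjusted p = 0.0898) or mouse 4 (adjusted p = 0.317), and Eif4e (0.46 ± 0.13, adjusted p = 0.00606) without mouse 4 (adjusted p = 0.142). The list had 6 rises without mouse 2, 4 without mouse 4, and 1 fall without any of the 3 mice or with library totals.

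In the serine, one-carbon and nucleotide list 14 of 24 genes rose and 0 fell (58.3% called, against 41.2% of all tested genes). Their median was 0.43. Shmt1, the cytosolic serine hydroxymethyltransferase, rose most, from 6.25, 6.25 and 9.11 CPM to 32.9, 72.2 and 89.8 CPM (log2 3.10 ± 0.19, adjusted p = 1.34e-10). Cad, which starts pyrimidine synthesis, rose by 1.10 ± 0.14 and Ctps, CTP synthase, by 1.26 ± 0.13, with the mitochondrial enzyme Mthfd2 at 0.65 ± 0.10. Among 16 nutrient transporters, 7 rose and 5 fell (75.0% called). Tfrc, the transferrin receptor, went from 59.6, 45.7 and 54.6 CPM to 102, 144 and 182 CPM (1.38 ± 0.14), Slc7a1, an arginine carrier, rose by 1.12 ± 0.13 and Slc1a5, a glutamine carrier, by 0.80 ± 0.14. Slc43a2 fell by 1.602 ± 0.16 and the lactate exporter Slc16a3 by 1.00 ± 0.14 on the log2 scale. The leucine carrier Slc7a5 (0.56 ± 0.15, adjusted p = 0.00449) and the glucose carrier Slc2a1 (0.28 ± 0.07, adjusted p = 0.00406) lost their calls without mouse 4 (adjusted p = 0.102 and 0.0924), and 3 transporters rose without that mouse. Of 17 glycolysis genes, 7 rose and 4 fell (64.7% called). Hk2, the inducible hexokinase, went from 12.3, 7.88 and 9.55 CPM to 16.6, 18.9 and 27.1 CPM (1.05 ± 0.18). Hk1 (0.79 ± 0.10) and Pfkfb3 (0.86 ± 0.09), which makes an activator of phosphofructokinase, rose too, and the isoenzyme genes Aldoc (-1.15 ± 0.30) and Ldhb (-0.52 ± 0.12) fell. Ldha was called at 0.25 ± 0.10 (adjusted p = 0.0495) and not without mouse 2 (adjusted p = 0.116) or mouse 4 (adjusted p = 0.293), and 4 glycolysis genes rose without either of them. Of 76 nuclear-encoded OXPHOS subunits, 17 rose and 3 fell, none by more than 1, so that 26.3% were called against 41.2% of all tested genes. With library totals 35 rose. Ndufb7 rose by 0.42 ± 0.09, Ndufa6 fell by 0.37 ± 0.09 and Ndufb11 by 0.29 ± 0.07 on the log2 scale. Ndufa12 (0.46 ± 0.13, adjusted p = 0.00632) was not called without mouse 4 (adjusted p = 0.121), and 11 subunits rose without mouse 2 and 3 without mouse 4. None of the 7 mitochondrially encoded subunits tested was called by edgeR, and none had an unadjusted p under 0.05. In the fit to the 6 libraries alone, and without a filter on low counts, 1 of them fell.

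Chaperones rose in 9 of 26 cases and fell in 4, which is 13 called, beside 41.2% of all tested genes, and 16 rose with library totals. Hsph1 rose from 104, 105 and 107 CPM to 199, 247 and 267 CPM (log2 1.16 ± 0.10), Hspd1, the mitochondrial HSP60, by 0.86 ± 0.13 and the chaperonin subunit gene Cct3 by 0.57 ± 0.09. Bag3 fell by 0.67 ± 0.09 and Calr, encoding calreticulin, by 0.46 ± 0.08 on the log2 scale. Hspa5 was not called (adjusted p = 0.159), and Hspa8 (0.36 ± 0.10, adjusted p = 0.00642) was not called without mouse 2 (adjusted p = 0.0857) or mouse 4 (adjusted p = 0.0864). The rises numbered 5 without mouse 2 and 3 without mouse 4.

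Of 20 G1 cyclins, CDKs and inhibitors, 4 rose and 9 fell (65.0% called, against 41.2% of all tested genes). Ccnd2, cyclin D2, rose from 255, 273 and 263 CPM to 433, 853 and 843 CPM (log2 1.37 ± 0.14, adjusted p = 1.52e-07) Cdk4 by 0.70 ± 0.10 and the pocket protein gene Rbl1 by 0.59 ± 0.12. E2f3 (0.47 ± 0.12, adjusted p = 0.00394) lost its call without mouse 4 (adjusted p = 0.0744), and Ccne2, cyclin E2, fell by 1.21 ± 0.29 on the log2 scale. The CDK inhibitor gene Cdkn1b fell from 331, 393 and 353 CPM to 205, 194 and 131 CPM (-1.05 ± 0.12), and Cdkn1a by 0.70 ± 0.14 on the log2 scale with overlapping groups. Of 24 replication and mitosis genes, 3 rose and 3 fell (25.0% called, against 41.2% of all tested genes). The licensing factor gene Cdt1 fell by 0.64 ± 0.08 on the log2 scale. Mcm7 (-0.32 ± 0.12) lost its call without mouse 2 or mouse 4 (adjusted p = 0.131 and 0.156), and Ccnb1 (1.16 ± 0.37) and Plk1 (0.67 ± 0.23) without mouse 1 (adjusted p = 0.108 and 0.0842) or mouse 4 (adjusted p = 0.0506 and 0.141). Mcm2 (0.18, adjusted p = 0.107) and Mki67 (0.21, adjusted p = 0.542) were not called. None of the 24 rose without mouse 1 or without mouse 4, and 1 fell without mouse 2 or with library totals. In the BCL2 family, 5 of 14 rose and 4 fell (64.3% called), and with library totals 8 rose. Bcl2, the survival gene, rose from 101, 92.6 and 84.4 CPM to 175, 238 and 192 CPM (1.11 ± 0.13), and Bcl2l1 was called at 0.39 ± 0.09 but not without mouse 4 (adjusted p = 0.0918). The pro-apoptotic genes Bbc3 (-1.14 ± 0.16), Bmf (-1.17 ± 0.18) and Bcl2l11 (-0.39 ± 0.07) fell, while Bid (0.85 ± 0.10) and Bax (0.54 ± 0.10) rose.

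Genes of the quiescent and naive state had the lowest median of the lists, -0.86, with 22 of 28 falling, 12 of them by more than 1, and 2 rising. Leaving out a mouse gave 21 to 22 falls. Lef1 fell from 307, 528 and 509 CPM to 129, 197 and 143 CPM (log2 -1.51 ± 0.10, adjusted p = 5.74e-10). Tcf7, encoding TCF1, fell from 1056, 1526 and 1414 CPM to 649, 695 and 485 CPM (-1.13 ± 0.11). Foxo1, a factor that drives Klf2 and Il7r, fell from 387, 421 and 392 CPM to 229, 222 and 226 CPM (-0.82 ± 0.07), Klf2 from 485, 605 and 709 CPM to 300, 370 and 367 CPM (-0.79 ± 0.15), and Txnip, an inhibitor of glucose uptake, by 0.83 ± 0.11 on the log2 scale. Mouse 1 had the lowest 0 h level of Lef1, Tcf7, Klf2 and Ccr7. The 2 genes that rose were Bach2 and Slfn2 (0.33 ± 0.08). Among Gimap and Schlafen genes, small GTPases and growth regulators of lymphocytes, 9 of 15 rose and 2 fell, with Slfn5 at 2.14 ± 0.18, Slfn8 at 1.36 ± 0.14, Gimap6 at -0.63 ± 0.07 and Gimap7 at -0.52 ± 0.09.

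**Figure D3:**
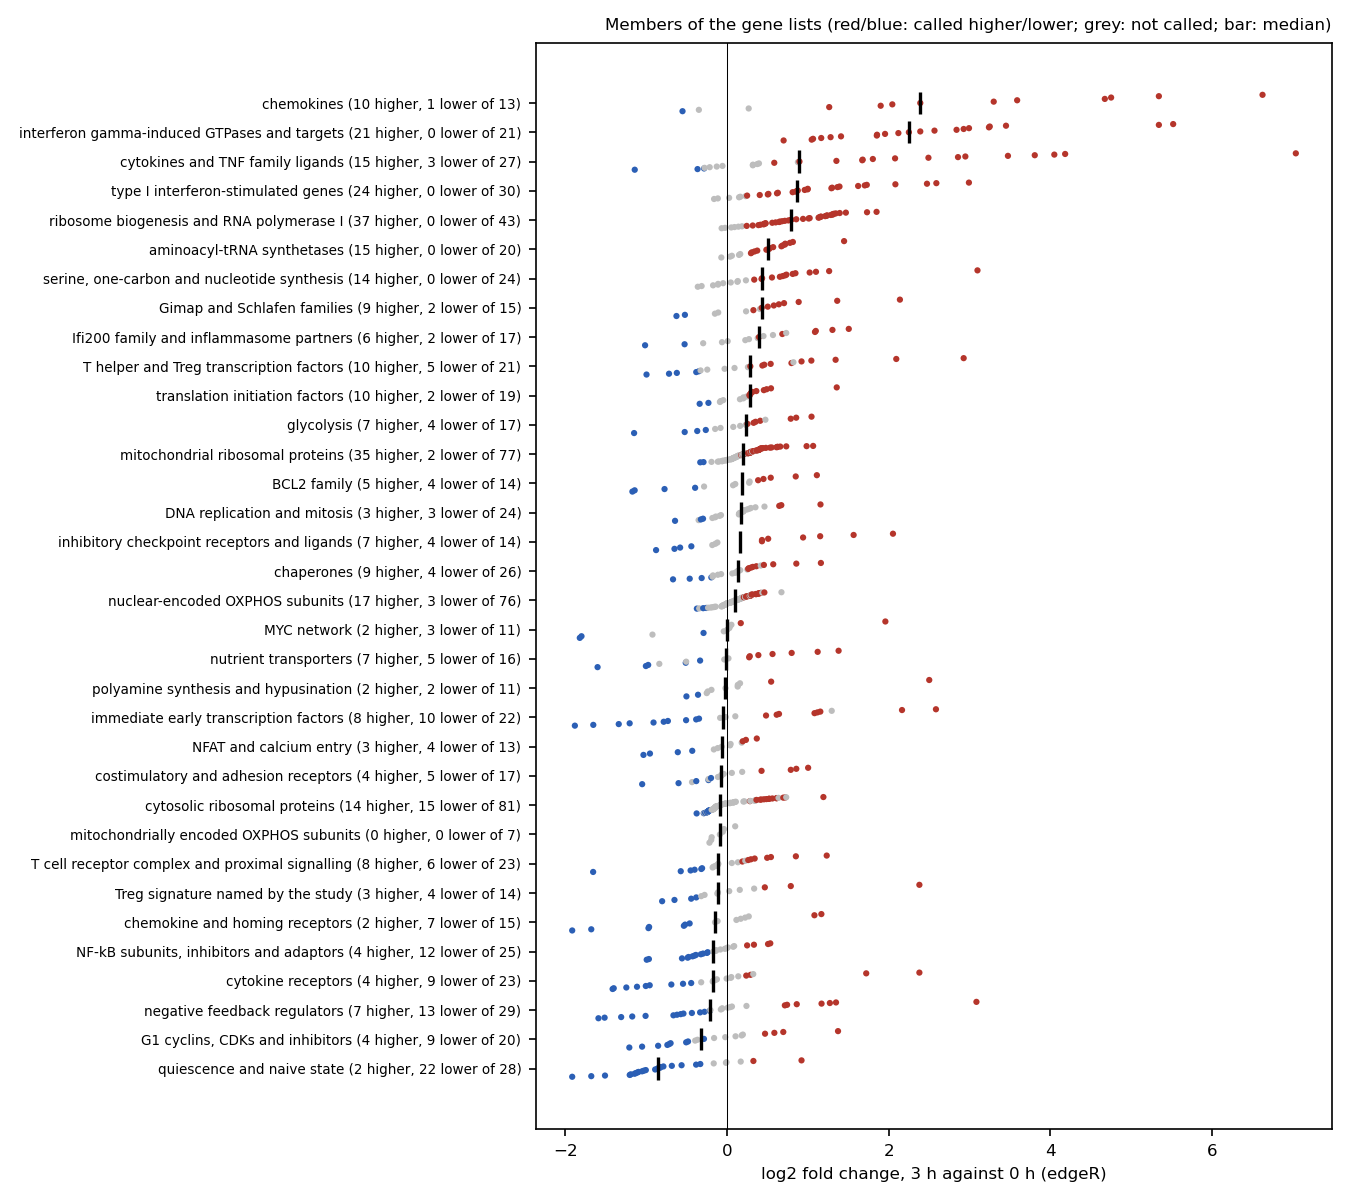
Log2 fold change (x axis, 3 h against 0 h, edgeR) of each tested member of the gene lists, 1 row per list ordered by its median (black bar). Red and blue points are called higher and lower, grey points not called; the chemokine (2.39) and IFNγ (2.25) lists stand at the top and the quiescence list (-0.86) at the bottom.

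To place 3 h in the course of stimulation, levels at 6 h and 24 h in the same Aim2-/- mice are given side by side. These comparisons share the 0 h libraries. Among interferon targets, mean Gbp2 was 122 ± 16.1, 1387 ± 418, 1403 ± 354 and 659 ± 152 CPM (SD, n = 3) at 0, 3, 6 and 24 h, and Gbp11 had its highest mean at 3 h (145 CPM, against 75.5 at 6 h and 20.95 at 24 h). Egr1 went from 64.6 CPM at 0 h to 393, 345 and 142 CPM, and Foxp3 from 149 CPM to 304, 313 and 93.97 CPM. Polr1b stood at 34.1, 127, 147 and 188 CPM and Shmt1 at 7.20, 65.0, 139 and 297 CPM, and the means of both genes were higher at each later time. Among replication genes Mcm2 was at 94.6, 108, 122 and 504 CPM, and the replication and mitosis list had median log2 fold changes of 0.17, 0.40 and 3.23 at 3, 6 and 24 h. Mean Il2 stood at 2.54, 20.01, 49.5 and 105 CPM. Tnfaip3 fell at each time, from 3275 CPM to 1650, 744 and 126 CPM, and Ccr7 was near its later level at 3 h (374 CPM, against 318 and 275 CPM).

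**Figure D4:**
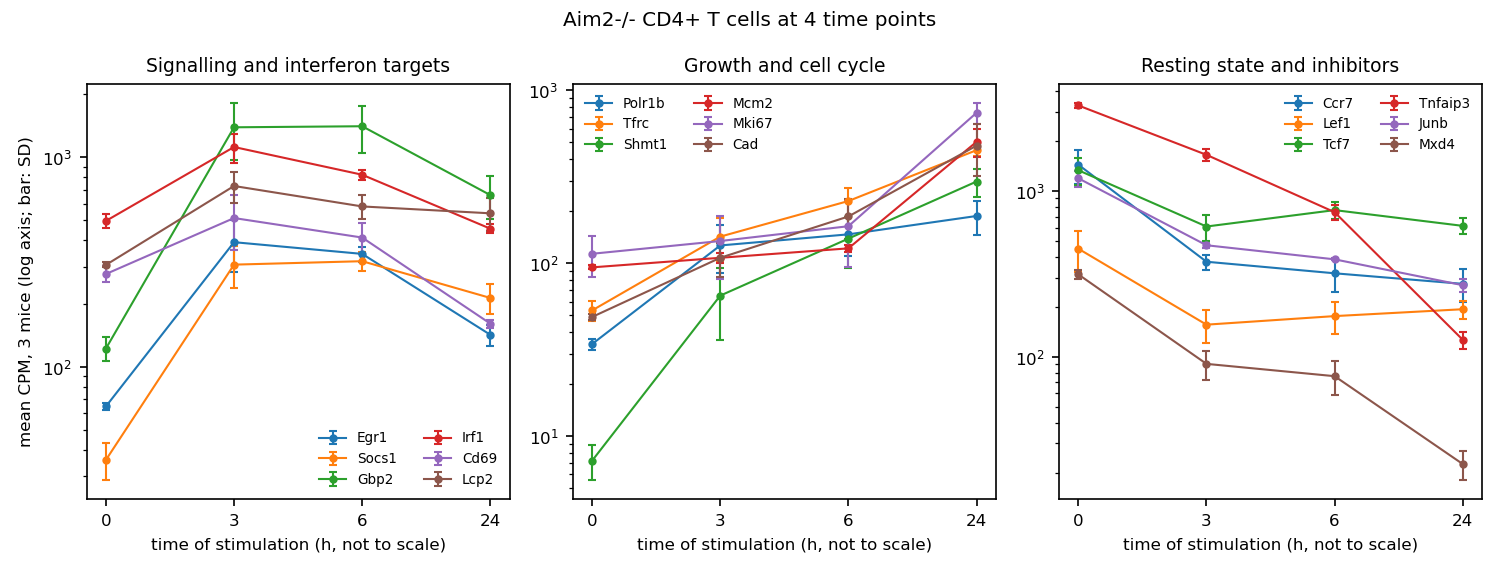
Mean CPM of the 3 Aim2-/- mice (log axis, bars are SD) at 0, 3, 6 and 24 h for 18 genes in 3 panels. Egr1, Irf1, Cd69 and Lcp2 have their highest mean at 3 h, Mcm2 and Mki67 change most after 6 h, and Tnfaip3 and Mxd4 are lower at each later time.

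To see whether the response differed from that of WT cells, the 3 h change in Aim2-/- was compared with that in the 3 WT mice as a difference of responses. By edgeR 9 genes, 0.0587% of those tested, were called, all with a lower value in Aim2-/-, and 1244 had an unadjusted p under 0.05. Of the 9, 4 belong to the IFNγ list: Irgm2, Tgtp2, Igtp and Irf1. Igtp, an immunity-related GTPase, rose in Aim2-/- from 302, 394 and 413 CPM to 771, 1050 and 1138 CPM and in the libraries labelled WT 1, 3 and 4 from 269, 267 and 317 CPM to 1052, 1219 and 1480 CPM. Its log2 fold changes of 1.41 ± 0.09 and 2.13 ± 0.09 differed by -0.71 ± 0.12 (adjusted p = 0.0244), and by -0.80 without the mouse labelled WT 1 (adjusted p = 0.0181). At 0 h, 2 of 3 Aim2-/- libraries lay above every WT library, and at 3 h 2 of 3 WT libraries lay above every Aim2-/- library. Gm12250, an annotated gene of the same GTPase family, rose by 2.61 in Aim2-/- and 3.98 in WT (difference -1.37 ± 0.18, adjusted p = 0.00386, and -1.56 without the mouse labelled WT 1, adjusted p = 0.00266). Il4ra, the IL-4 receptor chain, measured 722, 876 and 840 CPM at 0 h and 630, 1109 and 844 CPM at 3 h in Aim2-/- (0.05, not called) but rose in WT from 548, 873 and 891 CPM to 972, 1491 and 1882 CPM (0.89 ± 0.10; difference -0.85 ± 0.14, adjusted p = 0.0244). Without the mouse labelled WT 1 its difference was -0.88 (adjusted p = 0.0181). The MHC class Ib gene H2-T23 (-0.73 ± 0.13), the kinase gene Pim2 (-0.74 ± 0.14) and the immunoglobulin segment Igkv15-103 (-1.91 ± 0.36) were also called, and without that mouse Igkv15-103 was not (-1.50, adjusted p = 0.315). Igkv15-103 is a transcript of antibody-secreting cells and stood beside the plasma cell markers given above, whose part in it was not tested.

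The calls on this difference were fragile. Without the mouse labelled WT 1, 31 genes were called, 29 of them lower in Aim2-/-, with 8 of the 9 among them. Without Aim2-/- mouse 1 or 2, 2 and 4 genes were called, and without Aim2-/- mouse 4, WT 3 or WT 4, none was, with 1182, 874 and 1436 genes at an unadjusted p under 0.05. None was called either without the mouse block (653 unadjusted) or in a fit to the 0 h and 3 h libraries alone (1119 unadjusted). Over the IFNγ list, 19 of 21 responses were lower in Aim2-/-, with a median difference of -0.56 (-0.82 without the mouse labelled WT 1), beside 50.02% of all tested genes and 49.6% of those that rose by more than 1. Among 30 type I interferon-stimulated genes 22 were lower (median difference -0.30, and -0.51 without that mouse), and among 22 immediate early genes 21 were lower (-0.50), and 20 without that mouse (-0.48). High shares were not particular to these lists. Lower responses were seen for 16 of 17 glycolysis genes (median difference -0.22), 23 of 26 chaperones (-0.12) and 21 of 24 replication and mitosis genes (-0.13). Low shares occurred too, with 7 of 28 lower in the quiescence list and 4 of 13 in the calcium and NFAT list. Of the 7 mitochondrially encoded OXPHOS subunits 0 were lower (median difference 0.44, and 0.50 without the mouse labelled WT 1). In the main fit 0 of these 7 had an unadjusted p under 0.05, and without that mouse 5 had. For nuclear-encoded OXPHOS subunits 50 of 76 were lower (-0.03), and 30 of 77 without that mouse (0.03). The median difference was -0.16 for the ribosome biogenesis list and -0.05 without the mouse labelled WT 1, and 0.10 and 0.09 for the quiescence list.

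**Figure D5:**
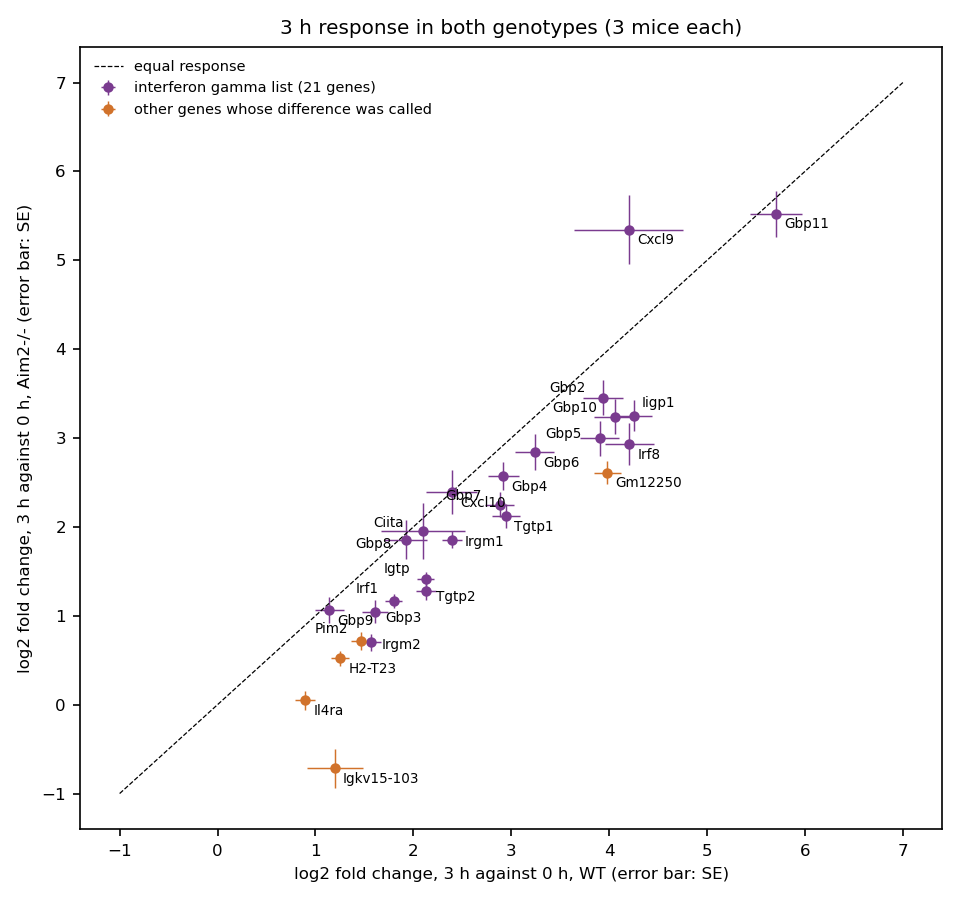
Log2 fold change at 3 h against 0 h in Aim2-/- (y axis) and WT (x axis), 3 mice labelled as each, with SE as error bars; the dashed line marks equal responses. Of the 21 IFNγ list members (purple) 19 lie under the line, as do the other genes whose difference was called (orange), with Il4ra at 0.05 and 0.89.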

How the data were processed

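mRNA libraries (TruSeq stranded mRNA) were made from splenic CD4+ T cells, and the authors aligned reads with STAR to GRCm38. The authors deposited raw counts per Ensembl gene ID, whole numbers without normalization. Use of strand in counting and tool versions are not given in the sources used here, so overlapping and antisense genes are uncertain. Totals were 20709423 to 21409678 counts in the 6 libraries, which limit precision by counting error only. Of 54446 IDs, 54409 were matched to a symbol. Genes were kept by filterByExpr (minimum count 10), scaled by TMM and tested with edgeR 4.0.16 (R 4.3.3) by the quasi-likelihood F test, with mouse as a block in 1 fit to all 24 libraries (12 residual degrees of freedom). The genotype difference was an interaction in the same fit. Adjusted p-values are Benjamini-Hochberg over all tested genes, two-sided, and ± marks the standard error of a log2 fold change.

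Mouse numbers pair the libraries of an animal in the labels. Deviations from group means correlated at r = 0.328 to 0.558 between 0 h and 3 h of the same mouse. Members and gene lists were chosen with earlier results of these data known. Named genes are the 10 largest rises and falls (mean of at least 10 CPM in the higher group, no overlap of groups, no clone names or receptor segments), preset genes and up to 2 further rises and falls per list, the genes whose response differed between genotypes, and Aim2. Alternatives were RLE and total scaling, 2 other filters, no block, DESeq2 1.42.0, limma-voom (limma 3.58.1), smaller sets of libraries and each mouse left out. Some genes that this rule names are not reported here. Promoters came from RefSeq, where 10598 of 15323 tested symbols matched.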

Additional observations from a re-analysis of the deposited data

Results flagged for a closer look

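In 9 genes the 3 h response differed between Aim2-/- and WT cells by a test of the difference itself (edgeR interaction, adjusted p under 0.05). The response in Aim2-/- minus that in WT, on the log2 scale, was -1.37 for Gm12250, -0.87 for Irgm2, -0.84 for Tgtp2, -0.71 for Igtp, -0.85 for Il4ra, -0.73 for H2-T23, -0.63 for Irf1, -0.74 for Pim2 and -1.91 for Igkv15-103. Reads of Tgtp2 and its near-identical copy Tgtp1 may be shared between them. The library labelled WT 1 at 0 h held 21.5 CPM of Aim2, near the Aim2-/- libraries, and 8 of the 9 genes were called without that mouse. Of the 9, 2 were called without Aim2-/- mouse 1 and 4 without Aim2-/- mouse 2. Without Aim2-/- mouse 4, WT 3 or WT 4, 0 were called.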

How the results depend on the processing

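The number of called genes (6307) lay between 5943 and 6616 with other scalings, filters, tools and sets of libraries, was 4698 without the replicate block and 4421 to 5575 when 1 Aim2-/- mouse was left out. No gene called under both a setting and the reported fit changed direction. The pairing by mouse thus raised the count of calls by less than 1.5 times, and beyond a log2 change of 1 the count went from 1474 to 1206 without the block. Without it 33 of the named genes were not called, at adjusted p from 0.0519 to 0.520, among them Il10 (0.108), Capg (0.155), Nt5e (0.182), Itgae (0.263) and Ifi206 (0.298), and 31 of the counts of list members that rose or fell moved by more than 1.5 times. The 9 genes with a genotype difference became 198 without a filter on low counts, 5 at a minimum mean of 1 CPM, 0 without the replicate block, 55 in DESeq2 and 0 in the fit to the 12 libraries of 0 h and 3 h, and lay between 0 and 31 when 1 mouse was left out. The cause was not tested.

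Sign changes occurred for genes that were not called. Casp1 (0.01) measured -0.00575 with RLE scaling, -0.00574 in DESeq2 and -0.015 in the 12 Aim2-/- libraries, and lay between -0.072 and 0.11 when 1 mouse was left out. Nfkbid (-0.0034) measured 0.11 with library totals, 0.011 without a filter, 0.012 at a minimum of 1 CPM and 0.034 without the replicate block, and lay between -0.25 and 0.18 when 1 mouse was left out. Tnfrsf4 was 0.0036 with library totals. With 1 mouse left out, Isg15 lay between -0.28 and 0.090, Il4ra between -0.094 and 0.17, Dusp2 between -0.11 and 0.18, and Lat between -0.056 and 0.12. Genes at or below 0.148 CPM at 0 h have folds that depth limits to bounds.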
